A study of Mus musculus with 10 samples.

Results

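Expression of 7 genes whose proteins set the lifetime of inflammatory mRNAs was followed in RAW264.7, a line of mouse cells with macrophage character: Zfp36, Zfp36l1, Zfp36l2, Zc3h12a, Rc3h1, Elavl1 and Hnrnpd. They were chosen by name. Every probe other than a control that carried one of these names on the array was taken, which gave 9 probes for 7 of the 36315 gene names on the array, or 7 of the 18051 genes that could be tested. All 9 probes were well above background on all 10 arrays. Each of the 5 groups had 2 arrays. Dex stands for dexamethasone and FF for fluticasone furoate, both prescribed glucocorticoids. VSG22 and VSGC12 are glucocorticoids known here by code name only, and EtoH is the group without a glucocorticoid. A glucocorticoid was given at 100 nM, lipopolysaccharide (LPS, the surface molecule of bacteria that switches on macrophages) followed after 1 hour at 1 µg/ml, and exposure lasted 16 hours. All groups are cells of 1 line with no genetic change named in the labels. Whether LPS was also given to the EtoH cells, and whether the 2 replicates of a group were separate cultures, is not stated in the labels. Each comparison with EtoH therefore carries the first limit, and p-values measure only the spread between these samples, which may be technical.

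Tristetraprolin, the product of Zfp36, is a zinc finger protein that binds AU-rich elements in the untranslated 3′ end of cytokine mRNAs and brings in the CCR4-NOT complex, which removes the poly(A) tail. Zfp36l1 and Zfp36l2 encode its closest relatives. Regnase-1 (Zc3h12a) is an endonuclease and roquin-1 (Rc3h1) an adaptor protein, and both recognise stem-loops in many of the same mRNAs. HuR (Elavl1) binds AU-rich elements and mostly stabilises the mRNA, while AUF1 (Hnrnpd) binds them with either outcome. In macrophages tristetraprolin, regnase-1 and roquin-1 are known for limiting TNF and other cytokines after LPS, and Zfp36 is known to respond to glucocorticoids in several cell types. The mRNA of Zfp36 carries AU-rich elements itself.

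The array reads each gene through probes of 60 bases, and probe sequences are written in the sense of the mRNA. AU-rich motifs were searched in every probe on its own strand, as the pentamer ATTTA, as the heptamer with the letters TATTTAT and as the nonamer TTATTTATT, where each longer motif contains the shorter ones. Of all 55681 probes, 7.71% held the pentamer, 1.03% the heptamer and 0.144% the nonamer, and of the 9 probes of these genes 2, 1 and 1 held them. These are the Zfp36 probe, with 2 copies of the pentamer and the nonamer at bases 12 to 20, and the Zc3h12a probe, with 1 copy of the pentamer. Both stretches are shown, 5′ to 3′, because there the measured part of the mRNA carries the AU-rich motif; it is in capitals.
Zfp36, bases 2 to 31 of the probe: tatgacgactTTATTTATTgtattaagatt
Zc3h12a, bases 1 to 30 of the probe: aggcgagATTTAaatattttaaatgaaaaa
A match is a description of these letters and no evidence that the site is used. The Zfp36 probe lies at chr7:29161940-29161999 and the Zc3h12a probe at chr4:124795870-124795929 in mm9, as the array design gives them. The others lie at chr12:81209022-81209081 (Zfp36l1), chr17:84583415-84583474 (Zfp36l2), chr1:162905017-162905076 (Rc3h1), chr8:4288411-4288470 (Elavl1) and chr5:100390181-100390240 (Hnrnpd). Rc3h1 and Elavl1 each have a dimmer second probe, described with those genes. No annotation of mm9 was used here, so exons and untranslated regions are not stated.

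Over the series, between 40.1% and 44.4% of spots were well above background on an array and 0 were saturated. Values below are log2 of the background-corrected signal relative to the 75th percentile of the same array, a percentile that ran from 375.1 to 536.8 signal units. The 2 Dex arrays stood further apart than the pairs of the other groups: the SD of the difference between replicates over all genes was 0.63 in Dex and 0.33 to 0.41 elsewhere. The Dex values of the 7 genes are therefore also given by array. The 8 macrophage markers measured were all well above background on the 10 arrays. Of the markers of other cell types, 2 of 6 for fibroblasts, 3 of 6 for T cells and 3 of 6 for neutrophils and mast cells could be measured, and 0 of 5 for B cells and 0 of 5 for epithelium.

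One gene of the 7 rose with dexamethasone and one fell with fluticasone furoate. Zfp36 was 2.71-fold higher in Dex than in EtoH, and Zfp36l1 was 1.38-fold lower in FF than in EtoH. Zfp36l1 was also 1.22-fold lower in the mean of the 4 glucocorticoids. For VSG22 and VSGC12 0 of the 7 passed the test against EtoH, and 0 had an unadjusted p under 0.05, beside 41.2% and 46.1% of all genes. In each comparison a gene counts as called at an adjusted p under 0.05 (limma, Benjamini-Hochberg over all genes). The glucocorticoids moved much of the transcriptome: in the mean of the 4 against EtoH 44.2% of all genes tested were called in either direction and 22.5% of all genes tested were called lower. Of the 7, 1 (14.3%) was called. In Dex 32.2% of all genes were called and 16.5% were called higher, in FF 37.1% were called and 19.2% lower, in VSG22 30.6% and in VSGC12 35.5%. So calls were no more frequent among the 7 than among all genes. The 4 comparisons share the same EtoH arrays.

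**Figure D1:**
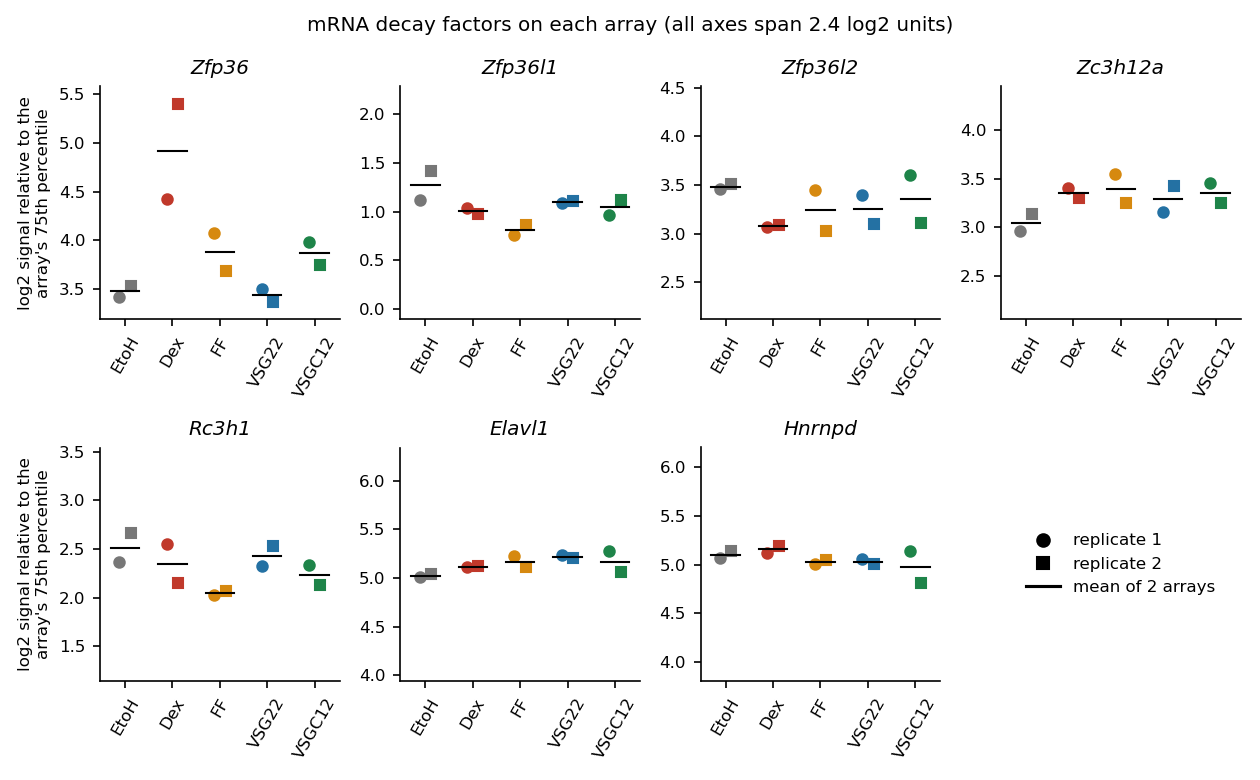
Log2 signal relative to the array's 75th percentile for the representing probe of each gene, by group; circles are replicate 1, squares replicate 2 and bars the mean of the 2 arrays. Zfp36 stands highest on the Dex arrays at 4.43 and 5.40, while the 10 arrays of Zfp36l1 run from 0.76 to 1.42.

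Zfp36 was the gene of the 7 that moved furthest. Its log2 signal was 3.42 and 3.54 on the EtoH arrays, 3.50 and 3.37 in VSG22, 3.98 and 3.75 in VSGC12, 4.08 and 3.68 in FF, and 4.43 and 5.40 in Dex. Both Dex arrays lay above all 8 other arrays, the FF and VSGC12 arrays lay above both EtoH arrays, and VSG22 overlapped EtoH. For such separations of single groups, here and in the genes below, the share of all genes was not counted. Against EtoH the log2 change in Dex was 1.44 ± 0.30 (SE, n = 2 arrays a group; 95% interval 0.72 to 2.16; limma, adjusted p = 0.013). It was 1.01 on slide 1 and 1.87 on slide 2, each slide holding all 5 groups. In FF it was 0.40 ± 0.30 (adjusted p = 0.32), in VSGC12 0.39 ± 0.30 (adjusted p = 0.35) and in VSG22 -0.04 ± 0.30 (adjusted p = 0.93). The SE is the same throughout because the 5 groups share 1 estimate of spread, to which the Dex arrays of Zfp36 contribute most. In order of mean level the groups ran Dex, FF, VSGC12, EtoH and VSG22 at 4.92, 3.88, 3.87, 3.48 and 3.43, and no neighbours in that order differed at an adjusted p under 0.05 over all genes.

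The Zfp36 values in Dex depend on the array. The Dex replicates of Zfp36 were 0.98 apart, and 7.97% of 17951 genes had Dex replicates at least as far apart. Without Dex replicate 1 the change in Dex was 1.93 (adjusted p = 0.0017) and without Dex replicate 2 it was 0.95 (adjusted p = 0.022). Without EtoH replicate 1 the change was 1.38 (adjusted p = 0.069) and without EtoH replicate 2 it was above 1.44 (adjusted p = 0.053), so either way the call was lost. The Zfp36 probe has 21.7% GC, and the 149 probes of up to 25% GC that were above background on all arrays had a median log2 change of 0.41 in Dex, 0.40 in VSGC12, 0.31 in FF and 0.25 in VSG22. With each array centred within classes of GC content, a setting added after the data were seen, the change of Zfp36 in Dex was 1.08 ± 0.29 (adjusted p = 0.031). Over the other settings run, this one included, its change ran from 0.07 to 0.60 in FF and from 0.02 to 0.56 in VSGC12. In VSG22 it ran from -0.32 to 0.08. Among fits with 1 array left out the lowest values were 0.21 in FF, 0.27 in VSGC12 and -0.11 in VSG22. The summed linear signal of the 3 measured neutrophil and mast cell markers was 30.6 to 39.5 in EtoH, 38.0 to 47.3 in VSG22, 75.7 to 87.3 in VSGC12, 112 to 124 in FF and 45.2 to 137 in Dex. That of the 3 T cell markers was 28.2 to 29.9 in EtoH, 39.2 to 43.6 in VSG22, 51.2 to 66.3 in VSGC12, 77.6 to 82.6 in FF and 42.2 to 114 in Dex. On both lists Dex replicate 2 was the highest array, whereas Dex replicate 1 lay below both FF and both VSGC12 arrays. Members of a list were called in both directions: in the mean of the 4 against EtoH 2 of the first list were called higher and 1 lower, and 1 of the second was called higher and 1 lower. Mpo, Ly6g and Cpa3 of the first list and Cd3d, Cd3g and Cd8a of the second could not be measured. The sum of the 8 macrophage markers was 508 to 509 in EtoH, 648 to 666 in VSG22 and 615 to 636 in VSGC12. In FF it was 645 to 684 and in Dex 631 to 662. Of these 8, 3 were called higher and 1 lower in the mean of the 4. The labels name 1 cell line. The part of all these markers in the result was not tested, and in bulk RNA more cells of a type and more RNA per cell cannot be told apart.

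**Figure D2:**
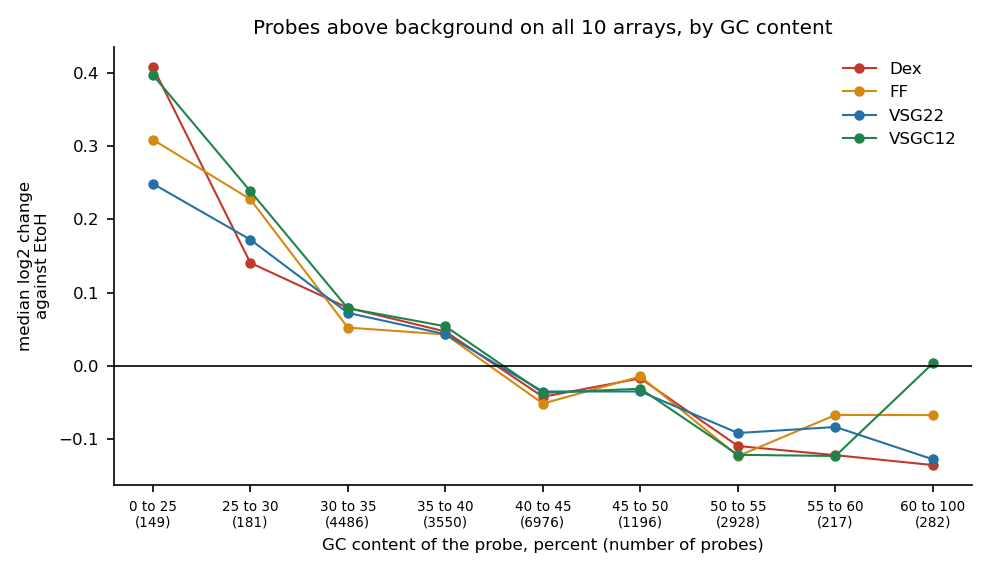
Median log2 change of each glucocorticoid against EtoH over probes above background on all 10 arrays, in classes of probe GC content, with the number of probes in parentheses. All 4 glucocorticoids have their highest median in the class of up to 25% GC, which holds the Zfp36 probe.

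Zfp36l1, the butyrate response factor that shares the tandem zinc fingers of tristetraprolin, went the other way. Its log2 signal was 1.12 and 1.42 in EtoH, 1.09 and 1.11 in VSG22, 0.97 and 1.12 in VSGC12, 1.04 and 0.97 in Dex and 0.76 and 0.86 in FF. All 8 glucocorticoid arrays lay below both EtoH arrays, as for 24.7% of all genes, but the lower EtoH array and the highest glucocorticoid array both read 1.12 when rounded. In FF the log2 change was -0.46 ± 0.11 (95% interval -0.73 to -0.19; adjusted p = 0.021), with -0.36 on slide 1 and -0.56 on slide 2. In the mean of the 4 it was -0.28 ± 0.09 (adjusted p = 0.042), with -0.16 on slide 1 and -0.40 on slide 2. In the other comparisons with EtoH the values were -0.27 ± 0.11 in Dex, -0.23 ± 0.11 in VSGC12 and -0.17 ± 0.11 in VSG22, with adjusted p of 0.12, 0.16 and 0.31. Both calls were lost without EtoH replicate 2, with a change of -0.31 in FF (adjusted p = 0.096) and -0.13 in the mean of the 4 (adjusted p = 0.34). Both were also lost when arrays were scaled to their median, with -0.36 (adjusted p = 0.37) and -0.16 (adjusted p = 0.60), and with no filter on dim probes (adjusted p = 0.10 and 0.17). In all, the call in FF was lost in 6 of 23 other settings, among them without FF replicate 1 (-0.41), without FF replicate 2 (-0.51) and in a fit of the EtoH and FF arrays alone. The call in the mean of the 4 was lost in 10 of 22, among them without both Dex arrays and without any one of Dex 2, FF 1, FF 2, VSG22 1, VSG22 2 and VSGC12 1. The value was negative in every one of these settings.

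Zfp36l2, the third relative, which acts in lymphocyte and blood cell precursors, was not called in any comparison. Its log2 signal was 3.45 and 3.51 in EtoH, 3.07 and 3.08 in Dex, 3.45 and 3.03 in FF, 3.40 and 3.10 in VSG22 and 3.61 and 3.11 in VSGC12. The Dex arrays lay close together below EtoH, whereas in the other 3 groups replicate 1 was near EtoH and replicate 2 was lower. The change in Dex was -0.41 ± 0.20 (adjusted p = 0.17) and in the mean of the 4 -0.25 ± 0.16 (adjusted p = 0.24). Within slides the mean of the 4 gave -0.07 and -0.43.

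Zc3h12a, which encodes regnase-1, the endonuclease that cuts Il6 mRNA among others, was higher on every glucocorticoid array than on either EtoH array without passing the test. Its log2 signal was 2.96 and 3.14 in EtoH, 3.41 and 3.30 in Dex, 3.55 and 3.25 in FF, 3.16 and 3.42 in VSG22 and 3.45 and 3.25 in VSGC12. All 8 arrays lay above both EtoH arrays, as for 22.9% of all genes. The mean of the 4 differed from EtoH by 0.30 ± 0.12 (95% interval 0.02 to 0.58; adjusted p = 0.078), with 0.43 on slide 1 and 0.17 on slide 2. The 4 single values ran from 0.24 in VSG22 to 0.35 in FF, and their adjusted p from 0.11 to 0.27.

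Rc3h1, which encodes roquin-1, had log2 signals of 2.36 and 2.66 in EtoH, 2.55 and 2.15 in Dex, 2.02 and 2.06 in FF, 2.32 and 2.53 in VSG22 and 2.34 and 2.13 in VSGC12. The FF arrays were the lowest of the 10, and Dex and VSG22 overlapped EtoH. In FF the log2 change was -0.47 ± 0.17 (adjusted p = 0.07). It was called there without either Dex array in the fit (adjusted p = 0.039) and with GC-class centring (-0.52, adjusted p = 0.034). The second Rc3h1 probe, whose listed span of 1918 bases at chr1:162895873-162897790 is longer than the probe, read 0.03 and 0.10 in EtoH, -0.60 and -0.57 in Dex and between -0.72 and -0.03 on the 8 glucocorticoid arrays. Its change was -0.47 ± 0.21 in the mean of the 4 and -0.65 ± 0.27 in Dex, with adjusted p of 0.12 and 0.11 over all probes. Both probes therefore read lower on average and neither passed.

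Elavl1, which encodes HuR, had log2 signals of 5.01 and 5.04 in EtoH, 5.11 and 5.12 in Dex, 5.23 and 5.11 in FF, 5.23 and 5.21 in VSG22 and 5.27 and 5.06 in VSGC12. All 8 glucocorticoid arrays lay above both EtoH arrays by little, as for 22.9% of all genes. The mean of the 4 differed by 0.14 ± 0.07 (adjusted p = 0.15). Its second probe, at chr8:4285514-4285573, read 0.21 and 0.28 in EtoH, 0.01 and -0.13 in Dex, 0.13 and 0.04 in FF, 0.12 and -0.18 in VSG22 and 0.32 and 0.32 in VSGC12. Its change in the mean of the 4 was -0.16 ± 0.09 (adjusted p = 0.18 over all probes). In VSGC12 it was 0.08, the sign of the first probe, and in the other 3 groups the probes differ in sign. So no direction is given for Elavl1.

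Hnrnpd, which encodes AUF1, was the steadiest of the 7 between groups. Its log2 signal was 5.07 and 5.14 in EtoH, 5.12 and 5.19 in Dex, 5.01 and 5.05 in FF, 5.06 and 5.00 in VSG22 and 5.15 and 4.82 in VSGC12. Dex and VSGC12 overlapped EtoH, while FF and VSG22 lay below both EtoH arrays. The mean of the 4 differed from EtoH by -0.05 ± 0.09 (adjusted p = 0.64), and the 95% intervals of its 5 comparisons with EtoH stayed between -0.39 and 0.33.

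**Figure D3:**
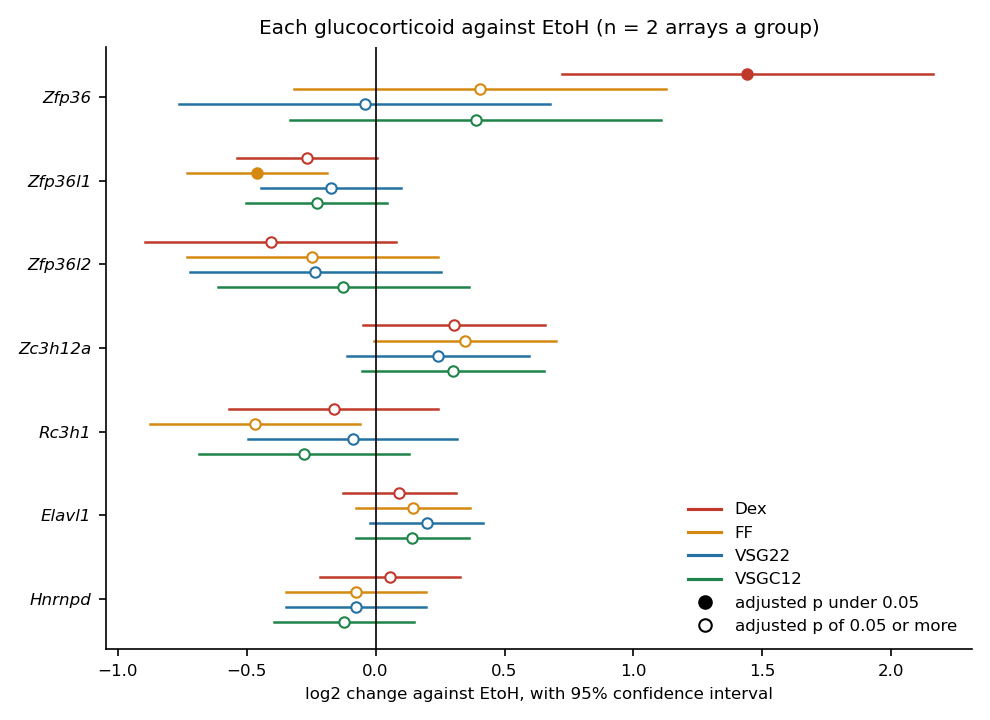
Log2 change of each glucocorticoid against EtoH for the 7 genes, with 95% intervals from limma; filled points have an adjusted p under 0.05. Only Zfp36 in Dex at 1.44 and Zfp36l1 in FF at -0.46 are filled.

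The 4 glucocorticoids were given at the same dose and time and were compared in 6 pairs for each of the 7 genes, 42 tests in all. Of these 4 had an unadjusted p under 0.05, 0 were called over all genes (limma), and 3 passed when the p-values of a gene were adjusted over its 6 pairs. All 3 were Zfp36 against Dex. Zfp36 was lower in VSG22 than in Dex by a log2 difference of -1.48 ± 0.30 (95% interval -2.20 to -0.76; p adjusted over the pairs 0.011, over all genes 0.0999). It was lower in VSGC12 by -1.05 (-1.77 to -0.33; 0.023 and 0.22) and in FF by -1.04 (-1.76 to -0.32; 0.023 and 0.24). Within slides these differences were -0.93 and -2.04 for VSG22, -0.45 and -1.66 for VSGC12, and -0.35 and -1.72 for FF. Slide 2, which holds the higher Dex array, gave the larger value each time. Without Dex replicate 1 the 3 differences, in the order VSG22, VSGC12 and FF, were -1.97, -1.54 and -1.52. Without Dex replicate 2 they were -0.99, -0.56 and -0.55. Either fit rests on 1 Dex array and takes no spread from the Dex group.

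Among FF, VSG22 and VSGC12 no difference in Zfp36 passed. VSGC12 differed from VSG22 by 0.43 ± 0.30 (95% interval -0.29 to 1.15) and from FF by -0.02 ± 0.30 (-0.74 to 0.70), and VSG22 from FF by -0.45 ± 0.30 (-1.17 to 0.27). These intervals reach past 2-fold for 2 of the 3, so the compounds are not shown to act alike on Zfp36. Their width comes from 1 estimate of spread shared by the 5 groups, not from the arrays compared alone. For Zfp36 the SD between replicates was 0.69 in Dex, 0.28 in FF, 0.17 in VSGC12, 0.09 in VSG22 and 0.08 in EtoH. Zfp36l1 was higher in VSG22 than in FF by 0.29 ± 0.11 (95% interval 0.01 to 0.56; p adjusted over the pairs 0.25). For the representing probes of the 6 genes other than Zfp36 every interval between compounds lay within -0.71 and 0.79, less than 2-fold either way. For the second Rc3h1 probe an interval reached 0.92, in VSGC12 against Dex. The second Elavl1 probe was higher in VSGC12 than in Dex by 0.38 ± 0.11 and than in VSG22 by 0.35 ± 0.11. Neither was called over all probes (limma, adjusted p = 0.24 and 0.71). Over all genes 0.366% were called between FF and Dex, 0.549% between VSG22 and Dex, 0.394% between VSGC12 and Dex, 0.00% between VSG22 and FF, 0.00555% between VSGC12 and FF and 0.00% between VSGC12 and VSG22. A moderated F-test over the 4 called 0 of the 7 and 0.255% of all genes. By representing probe its unadjusted p was 0.01 for Zfp36 and 0.05 or more for the other 6. For the second Elavl1 probe it was 0.046.

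**Figure D4:**
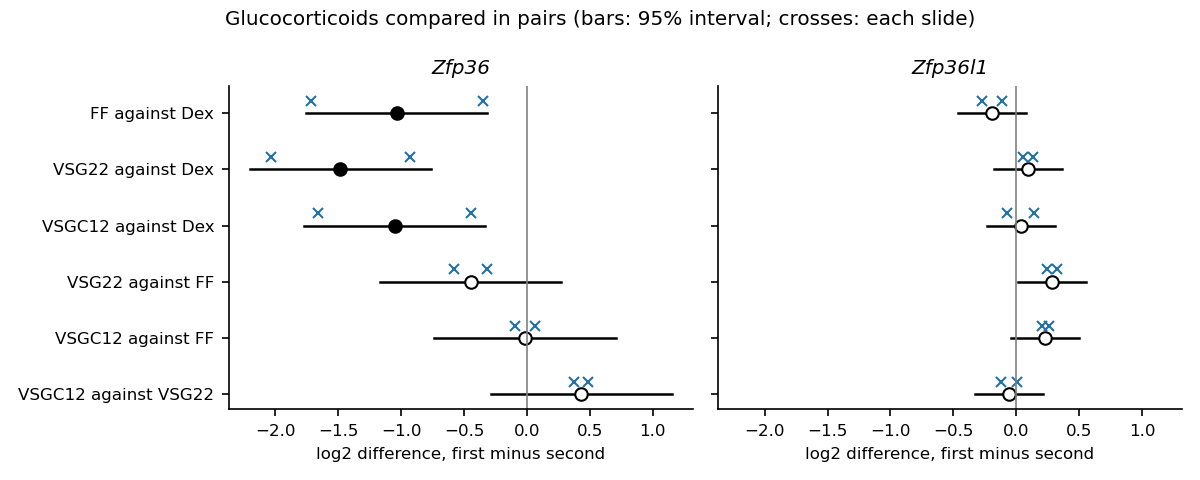
Log2 difference between glucocorticoids, first minus second, for Zfp36 and Zfp36l1, with 95% intervals; crosses are the values within slide 1 and slide 2. Filled points, the 3 comparisons of Zfp36 with Dex, have a p under 0.05 when adjusted over the 6 pairs of the gene.

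For each of the 7 genes the 2 genes most correlated with it over the 10 arrays were taken from 12250 candidates above background throughout. These are Pearson correlations over arrays that include the group differences, and they are given as a description. Taking the highest of 12250 values over 10 arrays gives a high r by itself, and no link between the genes was tested. The probes of Lrrc1 and Gm5997 lie in a patch of the Dex arrays, a term defined with the processing. Zfp36 was followed by Nsa2, a ribosome biogenesis factor (r = 0.992), and Gm6257 (0.989). Zfp36l1 was followed by Mfge8, the bridging protein for uptake of dying cells (0.956), and Lmbrd2 (0.942), and Zfp36l2 by Apaf1, the apoptosome scaffold (0.981), and Rc3h2, which encodes roquin-2 (0.965). Zc3h12a was followed by Lrrc1 (0.935) and Usp46, a deubiquitinase (0.933), and Rc3h1 by Gm5997 (0.963) and Cdc14a, a phosphatase (0.961). Elavl1 was followed by Tmem209 (0.966) and Rassf5 (0.960), and Hnrnpd by Ammecr1l (0.933) and Ptp4a1, a tyrosine phosphatase (0.922).

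The proteins above end in the general decay machinery, and its parts did not move as one. Counts are for the mean of the 4 glucocorticoids against EtoH, where 21.6% of all genes were called higher and 22.5% lower and the median of all genes was near 0. Among 19 genes of the CCR4-NOT and PAN deadenylases and their partners, 2 were called higher and 0 lower, with a median log2 change of -0.10. The 2 were Parn, a poly(A)-specific ribonuclease (0.32 ± 0.09, adjusted p = 0.030), and Cnot10 (0.26 ± 0.07, adjusted p = 0.021). So this list, which holds the CCR4-NOT complex together with genes outside it such as Parn, had few calls in either direction. The 2 became 0 without EtoH replicate 1 and 1 without EtoH replicate 2 or either VSG22 array. The 0 called lower became 1 without EtoH replicate 1, either Dex array or either FF array, and reached 2 in other settings.

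The RNA exosome, which degrades mRNA from its 3′ end, had calls on one side. Of its 15 genes with the SKI helicase complex 10 were called higher and 0 lower, with a median of 0.28. The largest were the core subunits Exosc5 (1.25 ± 0.14, adjusted p = 0.00075), Exosc6 (0.85 ± 0.08, adjusted p = 0.00029), Exosc1 (0.69 ± 0.08, adjusted p = 0.00064) and Exosc7 (0.66 ± 0.15, adjusted p = 0.012). In the single comparisons 6 were higher in Dex, 6 in FF, 6 in VSG22 and 8 in VSGC12, where 16.5%, 17.9%, 16.1% and 17.2% of all genes were called higher. The 10 became 5 without EtoH replicate 2, 6 without VSG22 replicate 1 and 5 with arrays scaled to their median.

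Of 17 genes for decapping and decay from the 5′ end, 7 were called higher and 4 lower. Those with the largest change were 4 subunits of the Lsm ring, which binds mRNAs whose tail has been shortened and, in its nuclear form, the U6 RNA. They were Lsm2 (1.04 ± 0.14, adjusted p = 0.0013), Lsm7 (1.02 ± 0.08, adjusted p = 0.00015), Lsm5 (0.73 ± 0.14, adjusted p = 0.0058) and Lsm3 (0.60 ± 0.10, adjusted p = 0.0040). The 4 called lower included Xrn1, the exonuclease that finishes the pathway (-0.58 ± 0.13, adjusted p = 0.010), and Ddx6, its helicase partner (-0.58 ± 0.10, adjusted p = 0.0037); these were named after their values were seen. The 7 became 4, and the 4 became 1, without EtoH replicate 2, and the 4 became 2 without EtoH replicate 1.

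Nonsense-mediated decay, whose helicase Upf1 also serves regnase-1, had 0 of 8 genes called higher and 3 lower, with a median of -0.15. The 3 were Upf3a (-0.55 ± 0.11, adjusted p = 0.0083), the kinase Smg1 (-0.42 ± 0.10, adjusted p = 0.018) and the endonuclease Smg6 (-0.37 ± 0.07, adjusted p = 0.0061), and 0 were called without EtoH replicate 2. Upf1 itself differed by -0.03 ± 0.09.

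Of 18 other proteins that bind AU-rich elements or stem-loops 15 could be measured, with 3 called higher and 3 lower. Hnrnpab, a relative of AUF1, was higher (0.30 ± 0.07, adjusted p = 0.010), while Celf1, which binds GU-rich elements (-0.46 ± 0.07, adjusted p = 0.0029), and Hnrnpdl, another relative of AUF1 (-0.41 ± 0.05, adjusted p = 0.0011), were lower. The third called lower, the regnase relative Zc3h12d, was well above background on both EtoH arrays and on 1 of the 8 glucocorticoid arrays, so no fold is given. The 3 higher calls became 0 without either EtoH array.

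Kinases, phosphatases and phosphoserine-binding adaptors that switch tristetraprolin off or on gave 3 calls among 12 measured genes, all higher. They were the adaptors Ywhaz (0.35 ± 0.10, adjusted p = 0.025) and Ywhaq (0.32 ± 0.06, adjusted p = 0.0058), which hold phosphorylated tristetraprolin inactive, and the kinase Mapkapk2 (0.30 ± 0.07, adjusted p = 0.015), which phosphorylates it. The 3 became 0 without EtoH replicate 1.

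Textbook mRNA targets of tristetraprolin, regnase-1 and roquin were mostly lower. Of 30 listed 25 could be measured, and 18 were called lower and 5 higher, with a median log2 change of -0.41. The largest decreases were those of Il1b, a fever-inducing cytokine (-2.09 ± 0.08, adjusted p = 1.1e-05), Myc, a growth regulator (-1.77 ± 0.15, adjusted p = 0.00024), Plk2, a kinase (-1.40 ± 0.13, adjusted p = 0.00035), and Lif, a cytokine of the interleukin 6 family (-1.38 ± 0.12, adjusted p = 0.00022). By compound 10 were lower in Dex, 14 in FF, 16 in VSG22 and 14 in VSGC12, where 15.7%, 19.2%, 14.5% and 18.3% of all genes were called lower. These groups share their controls, and the difference between the counts was not tested. These mRNAs also answer to transcription, which the array does not separate from decay. With arrays scaled to their median the 18 became 8 and the 5 became 3. The list was chosen with earlier results of these data known, so its count is a description.

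**Figure D5:**
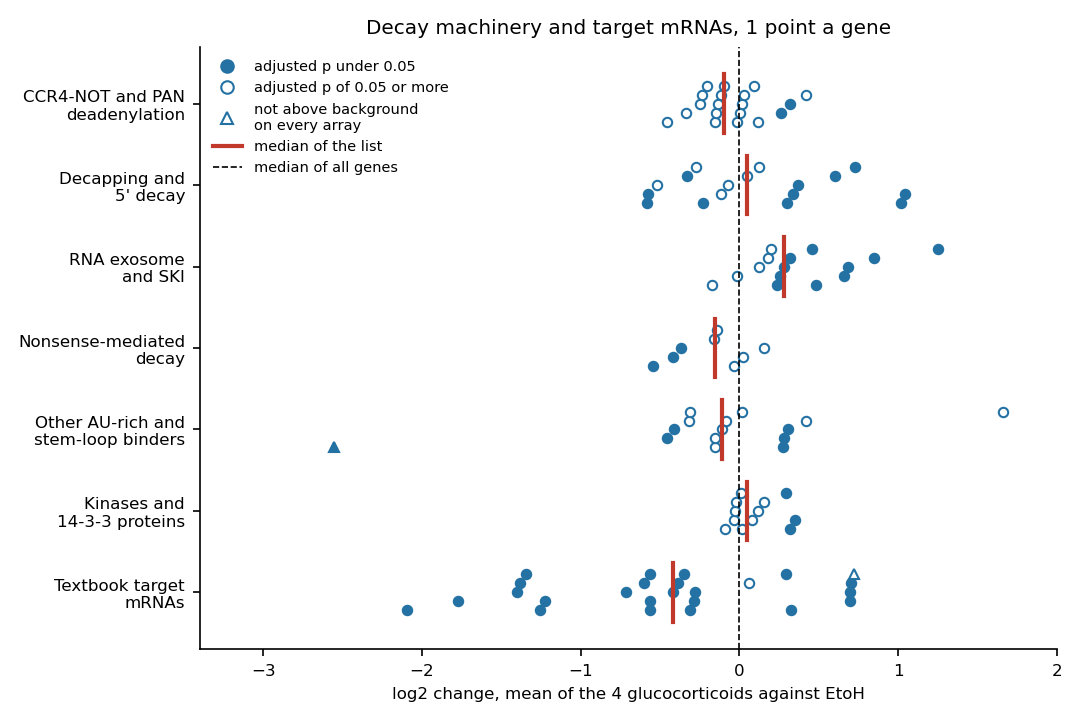
Log2 change in the mean of the 4 glucocorticoids against EtoH, 1 point a gene, for 7 lists of decay machinery, regulators and target mRNAs; filled points have an adjusted p under 0.05, triangles were not above background on every array, and red bars are list medians. The exosome points lie mostly to the right of the median of all genes (dashed) and the target mRNAs mostly to the left, with medians of 0.28 and -0.41.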

How the data were processed

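Total RNA (150 ng) was labelled with Cy3 and read on 10 one-colour Agilent arrays. Per the file headers, the deposited files hold intensity values from Agilent Feature Extraction 10.7.3.1, whose processed signal is background-subtracted and detrended within the array but not scaled between arrays; other columns, per the file headers, are flags that grade each spot. The submitters' processing notes list limma without a step.

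Spots flagged as uneven or as outliers were dropped, log2 processed signals were averaged over a probe's spots, and each array's 75th percentile was subtracted. A gene is represented by its brightest probe among those that passed background on both arrays of 1 group or more. Probes were named through the GRCm38.p6 gene table, for names only, and probe positions are those of the files (mm9). All 10 arrays entered 1 limma fit (version 3.58.1, in R 4.3.3) with a term for group, which left 5 residual degrees of freedom and added 1.814 from the prior. Tests were two-sided, with Benjamini-Hochberg adjustment over 18028 to 18049 genes per comparison and a threshold of 0.05. The fit was tested on simulated data. Second probes were read from the same fit over 23383 to 23406 probes. The number of arrays limits the precision.

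Replicate numbers follow the 2 slides. Deviations from the group means correlated between groups with r from -0.04 to 0.32, so the numbers were not used as pairs in the reported fit.

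The 7 genes, the lists and the rule for naming genes (at most 4 called genes of a list by size of change, and the 2 genes most correlated with each of the 7) were chosen with earlier results of these data known. Alternatives were the scaling, the background correction, the filter, the choice of probe, flagged spots, a slide block and a variance trend. Further ones left out spots in patches, changed the arrays in the fit or left out each array in turn. A spot lies in a patch of a group where at least 3 of its 24 neighbours were well above background in that group alone. GC-class centring was added after the data were seen.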

Additional observations from a re-analysis of the deposited data

How the results depend on the processing

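Each count of the 7 genes called was recomputed under 22 or 23 other settings. In the mean of the 4 glucocorticoids against EtoH it was 1 (Zfp36l1), and 0 with arrays scaled to their median, with no filter on dim probes and without both Dex arrays; leaving out one array gave 0 to 2. Those that gave 0 were EtoH replicate 2 and all of FF 1, FF 2, VSG22 1, VSG22 2 and VSGC12 1. Without Dex replicate 1 it was 2, Zfp36 joining with a change of 0.67 (adjusted p = 0.0072), and without Dex replicate 2 it was 1, Zfp36 (0.43, adjusted p = 0.037) in place of Zfp36l1 (-0.27, adjusted p = 0.063). In Dex against EtoH the count was 1 (Zfp36), 0 in a fit of those 4 arrays alone (adjusted p = 0.087), and 0 to 1 with one array left out. In FF against EtoH it was 1 (Zfp36l1), 0 with the array median, with no filter and in a fit of those 4 arrays alone, 2 without both Dex arrays and with GC-class centring (Rc3h1 joining), and 0 to 2 with one array left out; without FF replicate 1 or 2 it was 0. Between VSG22 and Dex it was 0, and 1 (Zfp36, adjusted p = 0.046) with the array median. In that comparison, FF against Dex, VSGC12 against Dex and the F-test, leaving out one array gave 0 to 1, the 1 being Zfp36 without Dex replicate 1. The other 5 comparisons gave 0 under every setting run.

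With the slide as a replicate block the count was 1, 1 and 1 in the first 3 comparisons, and no call of the 7 changed; Zfp36 in Dex then had an adjusted p of 0.022. No called value changed sign under any setting. Scaling to the array median moved the median of all genes in the mean of the 4 from -0.004 to 0.118. Counts over all genes then fell from 7961 to 3760 in the mean of the 4, from 5819 to 2033 in Dex, from 6693 to 2497 in FF, from 5518 to 1789 in VSG22 and from 6411 to 2370 in VSGC12; with no filter they were 4925, 2369, 3314, 2713 and 3104. In the lists, scaling to the array median left 0 deadenylation, 4 decapping, 1 other binding and 0 kinase genes called higher, and 0 decapping, 0 nonsense-mediated decay and 1 other binding gene called lower. With no filter 0, 4, 0 and 0 of the first 4 lists and 6 exosome genes were higher. The sign of Elavl1 in the mean of the 4 turned to -0.01 with the mean of its probes. A group left with 1 array is assumed to vary like the others. The cause of these changes was not tested.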

Other observations

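AU-rich motifs can be counted in all probes. Of the probes that hold TTATTTATT 46 could be tested, one of them for Zfp36. In the mean of the 4 glucocorticoids against EtoH 9 of them were called higher (19.6%) and 16 lower (34.8%), with a median of -0.05. Of all 23383 probes 20.6% were called higher and 22.2% lower, with a median of -0.02. By compound their median was -0.14 in Dex, -0.03 in FF, -0.05 in VSG22 and -0.10 in VSGC12, beside -0.02 to -0.03 for all probes. Of the 1784 probes holding ATTTA 455 were called higher (25.5%) and 388 lower (21.7%). These are shares of the deposited probes, given without a test, and a probe without the motif says nothing of the rest of its mRNA.

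Rc3h2, which encodes roquin-2, changed by -0.31 ± 0.18 in the mean of the 4 (adjusted p = 0.20), beside -0.25 ± 0.14 for Rc3h1. Zfp36l3, a relative of tristetraprolin known from the placenta, was above background on all 10 arrays and differed by 1.66 ± 0.67 (adjusted p = 0.086). That mean covers unlike values. Against EtoH the change was 2.67 in FF, 2.02 in VSGC12 and 1.58 in Dex. Set against FF, and not against EtoH, VSG22 differed by -2.31, which was not called. That difference is smaller than the 2.67 by which FF exceeded EtoH, so the VSG22 mean was not below that of EtoH.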
